A study of Mus musculus with 12 samples.

Results

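The genes of fatty acid oxidation were examined in the RNA of M-MDSCs, sorted from bone marrow at an old and a young age. They are 38 genes picked by name for the activation of fatty acids, the carnitine shuttle, beta-oxidation in mitochondria and peroxisomes, and its control by PPAR receptors, out of 23420 genes in the table. The filter on low counts left 32 of the 38 to be tested. M-MDSCs are immature, monocyte-like myeloid cells that restrain T cells. They were sorted as CD11b+Ly6G-Ly6Chi cells from 6 aged mice (24 months) and 6 young mice (6 months), all male C57BL/6JNIA mice without any other treatment in the labels, and each mouse gave 1 stranded library of total RNA.

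Fatty acids are first joined to coenzyme A, then carried across the inner mitochondrial membrane as carnitine esters. Each turn of beta-oxidation shortens the chain by the serial action of a dehydrogenase, a hydratase, a second dehydrogenase and a thiolase. The electrons of the first step pass through the electron transfer flavoprotein to the respiratory chain, peroxisomes shorten very long and branched chains, and PPAR receptors switch on many of the genes when bound by fatty acids.

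Fragments counted per mouse ranged from 8737941 to 16300374 in aged and from 4613239 to 9079237 in young mice. The unit of level is CPM, in which counts are divided by the library total after TMM scaling. Adjusted p-values are from edgeR's quasi-likelihood test with Benjamini-Hochberg adjustment over the 9742 genes tested, and a gene was called when its adjusted p-value was under 0.05. The monocyte markers of the sort were present, with a median of 740 CPM of Ly6c2 in aged and 540 CPM in young mice and 2823 and 3339 CPM of Itgam, the gene of CD11b. Of 9 tested monocyte markers, Ly6c2 (0.54), Ly6c1 (0.72) and Cd14 (1.11) were called higher, Itgam (-0.22) was called lower, and the median log2 fold change was 0.03. The other 5 were not called, with medians in aged and young mice of 138 and 138 CPM for Csf1r, 11.5 and 10.4 CPM for Ms4a6c, 27.4 and 31.8 CPM for Ccr2, 14.9 and 24.4 CPM for F13a1 and 4.76 and 8.88 CPM for Cx3cr1. A list of 7 neutrophil genes summed to between 76894 and 96861 CPM in aged and between 61562 and 84182 CPM in young mice, and 4 of the 7 were called higher in aged mice. The 9 monocyte markers summed to far less, 3429 to 4492 CPM in aged and 4010 to 4197 CPM in young mice, although the sort was for Ly6G- cells. The summed level of 12 resident macrophage genes was 94.8 to 1268 CPM in aged and 83.5 to 103 CPM in young mice, with aged replicate 1 the highest, and 9 of the 11 that were tested were called higher. Summed cycling genes lay between 301 and 710 CPM in aged and between 589 and 1201 CPM in young mice, where 1 of 6 tested, Mki67, was called lower (-2.01, adjusted p = 0.000667) and the median log2 fold change was -0.09. Young replicates 5 and 6 stood apart, with the highest cycling sums (1201 and 1160 CPM, the next young mouse at 744 CPM) and the lowest neutrophil sums (61562 and 65573 CPM). Dendritic cell genes summed to 0.749 to 2.33 CPM in aged and 3.12 to 7.74 CPM in young mice without overlap, with Clec9a, 1 of 1 tested, called lower (-2.45, adjusted p = 2.34e-05). Most of this sum was Clec9a alone, with means of 0.83 CPM in aged and 4.51 CPM in young mice. Flt3, the next highest of the list, had means of 0.213 and 0.371 CPM. Erythroid genes, none of which was tested, summed to 0.642 to 9.25 and 0.102 to 0.857 CPM, with Hba-a1 and Hba-a2 at 0, and among eosinophil, basophil and mast cell genes the 1 tested, Siglecf (Siglec5 in the table), was called higher (0.38, adjusted p = 0.0208). The part of these cells in the differences given here was not tested.

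Of the 32 tested genes, 16 were called higher in aged M-MDSCs, where 22.2% of all genes tested were. Another 3 were called lower, beside 22.8% of all genes, which makes 19 called in either direction (45.0% of all genes), and 13 were not called. A log2 fold change above 0 was found for 23 members and for 50.5% of all genes tested. Scaled to library totals without TMM, 11 members were called higher (17.2% of all genes) and 3 lower (28.2%), and Acsl4, Hadha, Hadhb, Echs1 and Hsd17b4 lost their calls. When reads were thinned by 1 random draw to the depth of the shallowest library, the calls of Acadvl, Eci2, Acaa1a, Hadhb, Echs1, Hsd17b4 and Ppard were lost, and in 10 binomial draws those of Acadvl, Eci2 and Acaa1a were made in all 10. The median log2 fold change was 0.21 over the tested members and 0.01 over all genes tested, and the members spanned -0.35 (Acsl1) to 0.93 (Etfb). Higher values in every aged mouse than in any young mouse were found for 9 members (9.68% of all genes) and lower values for 1 (12.1% of all genes). In bulk samples a smaller share of cells of a type and less RNA per cell cannot be told apart. The plot of fold changes by role shows where along the pathway these genes lie.

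**Figure D1:**
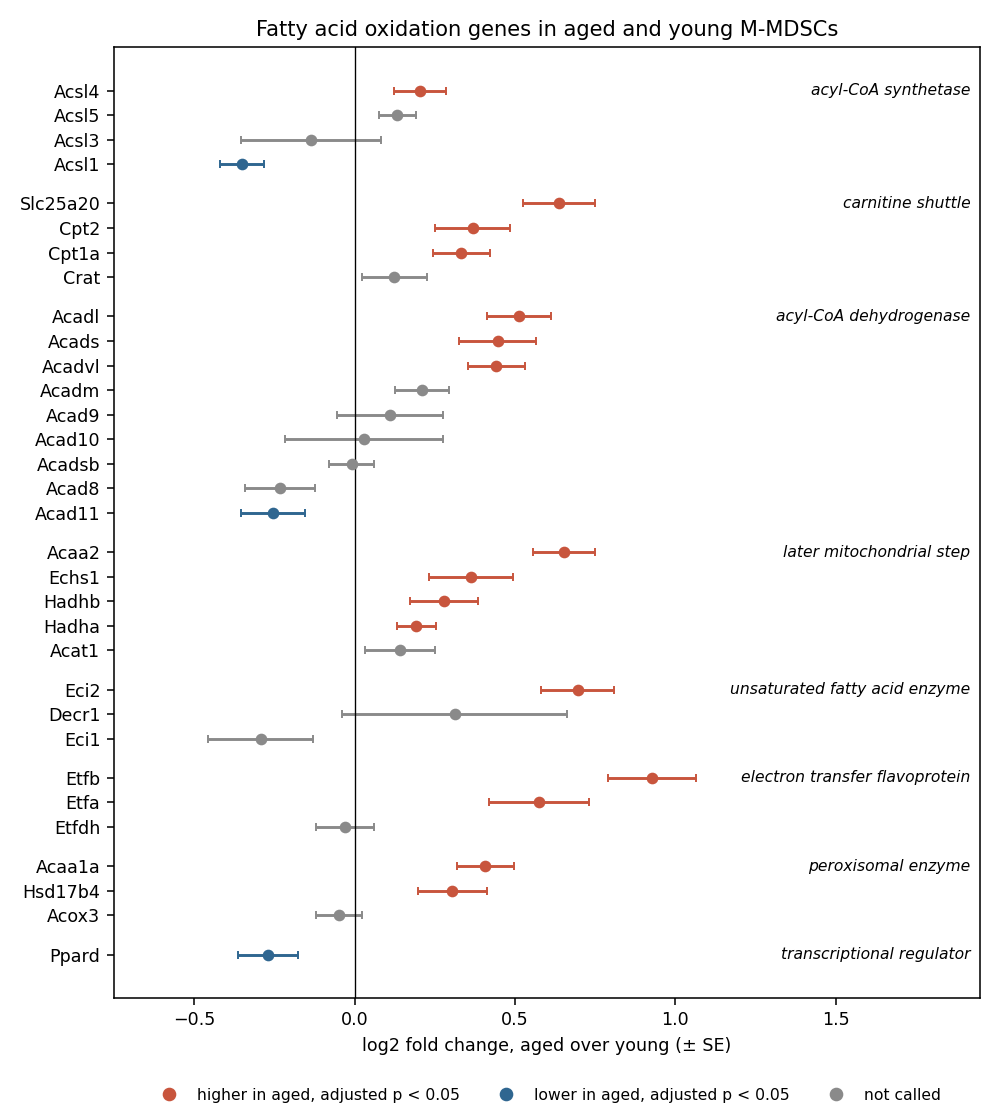
Log2 fold changes of the 32 tested members, aged over young, with standard errors as horizontal bars, ordered by role. Points to the right of 0 are higher in aged mice, and the 16 called higher are spread over all roles but the regulators, with Etfb at 0.93 the farthest right and Acsl1 at -0.35 the farthest left.

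The level of each mouse was also compared over all tested members at once, as the median difference from the young mean on the log2 scale. It lay between 0.14 and 0.28 in aged and between -0.11 and 0.09 in young mice, so that the ages did not overlap. The lowest values were those of young replicates 5 (-0.11) and 6 (-0.06), the mice that stood apart in cycling and neutrophil genes. Without both, 10 members were called higher (13.6% of all genes) and 1 lower (17.8%). Of the 16 higher calls 9 were kept, those of Acsl4, Cpt2, Acads, Hadha, Hadhb, Echs1 and Hsd17b4 were lost with the lower calls of Acad11 and Ppard, and the tenth was Pparg, which had not been tested with all mice. The summed level of the 38 members moved less, with 1500 to 1641 CPM in aged and 1451 to 1525 CPM in young mice, and here the ages overlapped. The most abundant member by far, Acsl1, went the other way from most of the others.

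The promoters of the members were searched for sites of nuclear receptors and of NRF1, a regulator of mitochondrial genes. RefSeq promoters of the GRCm38.p6 assembly (the build mm10), from 250 bases before to 50 bases after a start, were matched for 30 of the 38 members. The half-site AGGTCA of nuclear receptors, on either strand, was found in 6 of the 33 promoters of these 30 genes (those of Acadm, Acadvl, Cpt1a, Echs1 and Pparg) and in 16.3% of all 32851 promoters. The repeat that PPAR receptors bind, AGGTCA followed by any 1 base and AGGTCA again, which holds the half-site, was found in 0 of the 33 and in 0.0396% of all promoters, and the estrogen-related receptor site TCAAGGTCA, which also holds it, in 0 and in 0.423% of all. The NRF1 site, GCGC followed by A, any base and GCGC again, was in 4 of the 33 (Acad10, Etfb, Etfdh and Ppara) and in 4.6% of all promoters. The 4 sequences printed here are those of the members called higher that hold a site. Each gives the 250 bases before the start, 5′ to 3′ on the strand of the gene, with the matching letters in capitals. They lie at chr7:43443822-43444071 on the plus strand (Etfb), chr7:140116422-140116671 on the minus strand (Echs1), chr11:70015429-70015678 on the minus strand (Acadvl) and chr19:3323051-3323300 on the plus strand (Cpt1a).
Etfb: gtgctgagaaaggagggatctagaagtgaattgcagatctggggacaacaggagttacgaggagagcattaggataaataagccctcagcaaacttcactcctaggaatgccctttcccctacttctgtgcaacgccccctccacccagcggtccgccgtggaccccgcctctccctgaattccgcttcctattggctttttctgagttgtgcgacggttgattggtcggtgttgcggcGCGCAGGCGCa
Echs1: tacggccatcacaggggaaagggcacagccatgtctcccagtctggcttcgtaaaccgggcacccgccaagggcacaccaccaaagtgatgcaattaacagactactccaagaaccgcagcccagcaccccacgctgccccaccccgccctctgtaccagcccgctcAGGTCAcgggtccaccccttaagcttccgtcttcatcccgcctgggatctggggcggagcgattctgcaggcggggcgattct
Acadvl: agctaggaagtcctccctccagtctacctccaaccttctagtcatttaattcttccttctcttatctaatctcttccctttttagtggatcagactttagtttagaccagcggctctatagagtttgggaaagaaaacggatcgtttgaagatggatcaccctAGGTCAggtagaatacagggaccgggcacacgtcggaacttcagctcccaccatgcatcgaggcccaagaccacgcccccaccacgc
Cpt1a: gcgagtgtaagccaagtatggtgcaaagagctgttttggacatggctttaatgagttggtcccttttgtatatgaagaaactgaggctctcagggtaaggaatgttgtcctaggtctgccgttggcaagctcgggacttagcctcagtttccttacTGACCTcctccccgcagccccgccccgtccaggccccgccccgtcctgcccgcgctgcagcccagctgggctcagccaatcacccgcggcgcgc
In Etfb the NRF1 letters begin 11 bases before the start, and in Echs1, Acadvl and Cpt1a the half-site begins 83, 87 and 94 bases before it, on the other strand in Cpt1a. A match of letters is a description of the sequence and not of binding.

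Acyl-CoA synthetases, which activate fatty acids, had a fall as their clearest change. Acsl1, the long-chain synthetase at chr8:46471042-46536050 on mm10, had the highest level per length of all 38 members, at 93.9 CPM per kb of exons in young and 73.6 CPM per kb in aged mice. Its level was 257 CPM in the lowest, 286 CPM in the median and 330 CPM in the highest aged mouse, and 348, 358 and 393 CPM in young mice. All 6 aged mice lay below all 6 young mice, and the means were 365 ± 17 CPM in young and 286 ± 26.5 CPM in aged mice (SD, n = 6). The log2 fold change was -0.35 ± 0.07 (SE, adjusted p = 0.000986). Acsl4, which favours arachidonic acid, was called higher by a narrow margin (0.20 ± 0.08, adjusted p = 0.0499), with 72.5 to 85.6 CPM in aged and 58.0 to 79.7 CPM in young mice. This call was lost in 9 of the 12 fits that left out a mouse. Acsl5 at a log2 fold change of 0.13 (adjusted p = 0.0705) and Acsl3 at -0.14 (adjusted p = 0.63) were not called. Exons of Acsl3 overlap those of Utp14b on the same strand, which leaves its counts uncertain. Per length, Acsl1 made up a median of 60.4% of the 4 synthetases in aged mice (58.4 to 65.2%) and 68.6% in young mice (66.1 to 72.5%), again without overlap.

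The ratio of 2 genes within a mouse does not depend on the scaling between libraries. The 6 pairs compared were chosen with earlier results of these data known. Their p-values therefore describe these mice and are not independent tests. The log2 ratio of Acsl4 to Acsl1 counts had a median of -1.80 in aged mice (-2.19 to -1.72) and -2.39 in young mice (-2.76 to -2.16). In 5 of 6 aged mice the ratio was above every young mouse, and its mean was 0.56 higher, 1.48-fold on the linear scale (exact permutation test, two-sided, p = 0.00433, adjusted over 6 pairs 0.013).

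In the carnitine shuttle, 3 of 4 tested genes were called higher. Slc25a20, the translocase that exchanges acylcarnitine for carnitine across the inner membrane (chr9:108662098-108684641), rose from 40.1 ± 5.54 to 62.4 ± 9.94 CPM (SD, n = 6). Its lowest, median and highest values were 49.2, 60.9 and 76.8 CPM in aged and 32.8, 39.4 and 48.3 CPM in young mice. The ages did not overlap, and the log2 fold change was 0.64 ± 0.11 (SE, adjusted p = 0.000493). Cpt1a, the outer membrane acyltransferase that limits entry of long chains (chr19:3323301-3385733), had 162, 181 and 197 CPM in aged and 119, 138 and 179 CPM in young mice. One young mouse, replicate 1, reached the aged range, and the log2 fold change was 0.33 ± 0.09 (adjusted p = 0.00659), with means of 180 ± 11.6 and 143 ± 21.2 CPM. Cpt2, the inner membrane acyltransferase that releases the acyl-CoA, followed with 0.37 ± 0.12 (adjusted p = 0.018). Crat, which handles acetyl and other short groups, was not called (0.12, adjusted p = 0.338). Cpt1b, the muscle form of Cpt1, was not tested, at 0 to 2 counts in aged and 0 to 4 in young mice, and its exons overlap another gene on the same strand. Cpt1a accounted for 99.6% of Cpt1 per length in the mouse with the lowest share.

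The ratio of Cpt2 to Cpt1a did not differ detectably between the ages, with a log2 difference of 0.02 (exact p = 0.892) and overlapping mice. The median log2 ratio was -2.80 in aged and -2.77 in young mice. With leaving out any 1 mouse the difference stayed between -0.06 and 0.10.

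**Figure D2:**
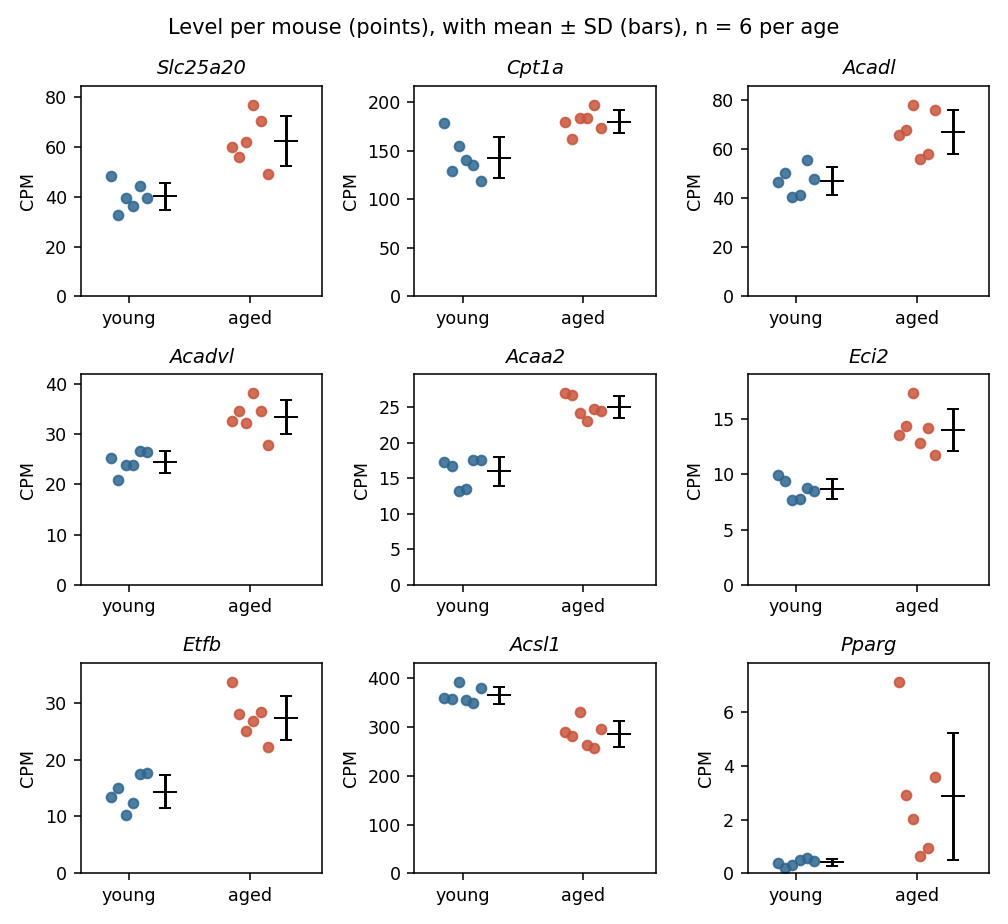
CPM of 9 members in each of the 12 mice, with the mean and SD of 6 mice as bars beside the points and axes that start at 0. In the 7 panels from Slc25a20 to Etfb the aged points lie above the young points except for 1 young mouse of Cpt1a, in the Acsl1 panel they lie below, and in the Pparg panel they spread from 0.647 to 7.14 CPM.

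Among the 9 acyl-CoA dehydrogenases, 3 were called higher, 1 lower and 5 not called. The 4 that act on straight chains sort by chain length, and 3 of them rose. Acadl, for long chains (chr1:66830839-66863309), had the highest level per length of the dehydrogenases, with 55.7, 66.8 and 77.8 CPM in aged and 40.5, 47.2 and 55.6 CPM in young mice. The highest young mouse fell just short of the lowest aged mouse, and the log2 fold change was 0.51 ± 0.10 (adjusted p = 0.000986), with means of 66.9 ± 9.0 CPM in aged and 47.0 ± 5.68 CPM in young mice. Acadvl, for very long chains (chr11:70010183-70015428), had 27.8, 33.6 and 38.1 CPM in aged and 20.8, 24.5 and 26.6 CPM in young mice. These ages did not overlap either, and the log2 fold change was 0.44 ± 0.09 (adjusted p = 0.00119), from 24.4 ± 2.15 to 33.3 ± 3.40 CPM. Acads, for short chains, was called at 0.45 ± 0.12 (adjusted p = 0.00722). Acadm, for medium chains, missed the threshold at 0.21 ± 0.08 (adjusted p = 0.0522), with 28.3 to 32.4 CPM in aged and 23.1 to 30.2 CPM in young mice.

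The log2 ratio of Acadm to Acadvl was 0.23 lower in aged than in young mice (exact p = 0.0238, adjusted 0.0476), and 4 of 6 aged mice lay below all young mice. Its medians were -0.13 (-0.29 to 0.11) in aged and 0.13 (-0.04 to 0.31) in young mice. Aged replicate 7 had the highest aged ratio, at 0.11. This result was near the threshold and was lost when any of 9 mice was left out, aged replicates 1, 2, 4, 5 and 6 and young replicates 1, 2, 9 and 10.

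The remaining dehydrogenases act mostly on branched or unusual acyl groups or in other roles. Acad11, which takes long chains with a hydroxyl group, was called lower (-0.25 ± 0.10, adjusted p = 0.0461). Its aged mice had 57.8, 61.5 and 87.2 CPM and its young mice 70.5, 76.7 and 90.3 CPM, with means of 65.1 ± 11.1 and 77.8 ± 6.62 CPM. Aged replicate 7 alone overlapped the young mice, and the call held in 2 of the 12 fits without a mouse. Acad8, of valine breakdown, was at -0.23 (adjusted p = 0.0929). Acad9, an assembly factor of complex I, was at 0.11 (adjusted p = 0.608), Acad10 at 0.03 (adjusted p = 0.931) and Acadsb, of isoleucine breakdown, at -0.01 (adjusted p = 0.922).

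Of the later mitochondrial steps, 4 of 5 tested genes were called higher. Acaa2, the thiolase that ends the turn (chr18:74779212-74806207), had means of 25 ± 1.5 CPM in aged and 16 ± 2.09 CPM in young mice (SD, n = 6). Its aged mice had 23.1, 24.6 and 27.0 CPM and its young mice 13.2, 17.1 and 17.6 CPM. The gap between the ages was wide beside the spread within them, and the log2 fold change was 0.65 ± 0.10 (adjusted p = 0.000135). Echs1, the short-chain hydratase, was called at 0.36 ± 0.13 (adjusted p = 0.0332), and lost the call in 5 of the 12 fits without a mouse. Acat1, the acetoacetyl-CoA thiolase, was not called (0.14, adjusted p = 0.301). Hadh, the short-chain hydroxyacyl dehydrogenase, was not tested, at 7 to 30 counts in aged and 0 to 9 in young mice. DESeq2, which kept it, gave a log2 fold change of 1.34 (adjusted p = 0.012).

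Hadha and Hadhb encode both subunits of the trifunctional protein of the inner membrane, which carries out the last steps for long chains. They are divergent neighbours on chr5, Hadha on the minus and Hadhb on the plus strand, with starts 342 bases apart (30154980 and 30155322). Hadha had the highest level per length of its role, with 82.6, 85.4 and 94.1 CPM in aged and 72.6, 75.7 and 82.1 CPM in young mice. These ages did not overlap although the change was small, 0.19 ± 0.06 (adjusted p = 0.0166), from 76.4 ± 4.02 to 87.2 ± 4.65 CPM, and the call was lost without TMM (0.11, adjusted p = 0.186) and without a filter on low counts (0.19, adjusted p = 0.0502). Hadhb was called at 0.28 ± 0.11 (adjusted p = 0.0417), with 13.8 to 18.4 CPM in aged and 11.6 to 15.2 CPM in young mice. Its call was lost in 7 of the 12 fits without a mouse. The log2 ratio of Hadha to Hadhb, 2.41 in the median aged and 2.44 in the median young mouse, differed by -0.08 (exact p = 0.366), and no difference between the subunits was detected. After a correction for length the sign turned, at 0.14 (exact test, adjusted p = 0.149).

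Unsaturated fatty acids need isomerases that move the double bond, and here the members parted. Eci2 (chr13:34977748-34994144), found in mitochondria and peroxisomes, had 11.7, 13.9 and 17.3 CPM in aged and 7.70, 8.65 and 9.96 CPM in young mice. The ages did not overlap, and the log2 fold change was 0.70 ± 0.11 (adjusted p = 0.00029), with means of 14 ± 1.89 CPM in aged and 8.69 ± 0.903 CPM in young mice. Eci1, its mitochondrial relative on chr17, was at -0.29 ± 0.16 (adjusted p = 0.153), with 2.77, 3.49 and 4.07 CPM in aged and 3.32, 4.44 and 5.09 CPM in young mice. Decr1, the dienoyl-CoA reductase, was at 0.31 with the widest error of the tested members, 0.35 (adjusted p = 0.488), and at 2 to 21 counts per mouse.

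Within each mouse, the log2 ratio of Eci1 to Eci2 had a median of -1.88 in aged mice (-2.46 to -1.79) and -1.0 in young mice (-1.56 to -0.74). All 6 aged mice lay below all 6 young mice. The difference of the means, -0.96, corresponds to a ratio 0.512 times that of young mice (exact p = 0.00216, the smallest that 924 regroupings of the mice can give, adjusted 0.013). It was the largest of the 6 pairs tested, which were chosen with earlier results known, as the plot of ratios shows. The exons of Eci1 and Eci2 have 1091 and 1610 bases. After a correction for length the difference was -1.11 for Eci1 to Eci2 (adjusted p = 0.00649), 0.68 for Acsl4 to Acsl1 (0.00649), -0.25 for Acadm to Acadvl (0.0216) and -0.18 for Cpt2 to Cpt1a (0.21), all from the exact permutation test.

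**Figure D3:**
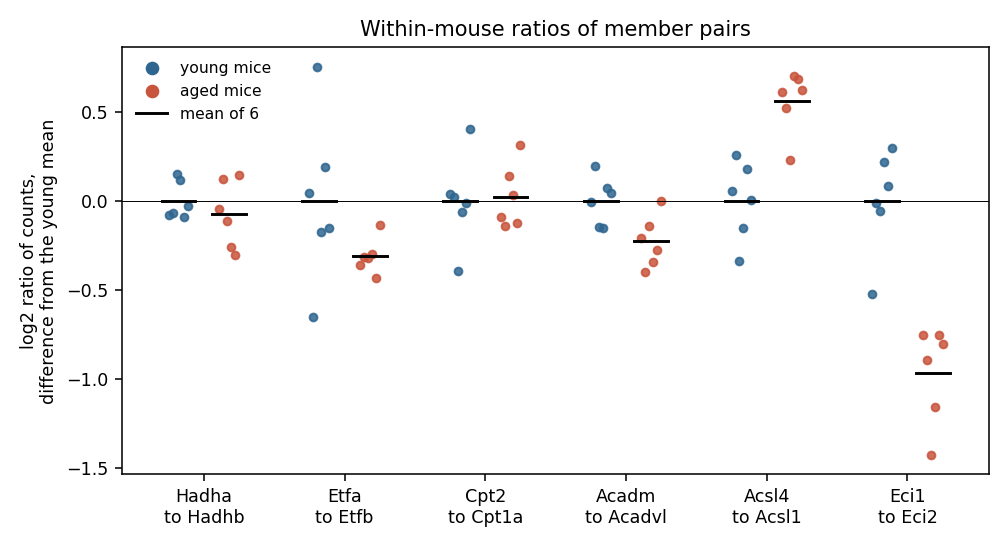
Within-mouse log2 ratios of counts for 6 pairs of members, each drawn as the difference from the mean of the young mice, with 1 point per mouse and a bar at the mean of 6 mice. The aged points of Eci1 to Eci2 lie wholly below the young points, with a mean difference of -0.96, those of Acsl4 to Acsl1 lie above them in 5 of 6 mice, and those of Hadha to Hadhb, Etfa to Etfb and Cpt2 to Cpt1a overlap.

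The electron transfer flavoprotein takes the electrons of the acyl-CoA dehydrogenases. Etfb, its beta subunit (chr7:43444072-43457800, 6 exons), had the largest rise of the tested members, 0.93 ± 0.14 (adjusted p = 0.000129), or 1.90-fold, and 0.54 after a correction for gene length. Its aged mice had 22.2, 27.3 and 33.7 CPM and its young mice 10.2, 14.2 and 17.6 CPM. No aged mouse reached down to the young range, and the means were 27.3 ± 3.83 and 14.3 ± 2.93 CPM (SD, n = 6). Etfa, the alpha subunit, rose by 0.57 ± 0.16 (adjusted p = 0.00785), a call lost after that correction (0.35, adjusted p = 0.0745), with 10.5, 11.2 and 13.7 CPM in aged and 4.93, 7.76 and 10.4 CPM in young mice, also without overlap. Etfdh, the oxidoreductase that hands the electrons to ubiquinone, did not follow, at -0.03 ± 0.09 (adjusted p = 0.812) and 18.9 to 24.3 CPM in aged and 20.1 to 25.1 CPM in young mice.

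The ratio of Etfa to Etfb varied widely among young mice, from -1.58 to -0.18 on the log2 scale, and little among aged mice, from -1.36 to -1.07. Its difference of -0.31 missed the threshold (exact p = 0.143, adjusted 0.214). Without young replicate 2, which had the lowest ratio and the smallest library, the difference was -0.44 (adjusted p = 0.013), without young replicate 5 it was -0.16 (0.412), and after a correction for length -0.13 (0.498), all from the exact test.

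Of the peroxisomal enzymes, 2 of 3 tested genes were called higher. Acaa1a, a thiolase, was at 0.41 ± 0.09 (adjusted p = 0.00205), with 29.1 to 40.9 CPM in aged and 24.8 to 28.2 CPM in young mice and no overlap. Hsd17b4, the D-bifunctional protein, was at 0.30 ± 0.11 (adjusted p = 0.031), a call lost in 5 of the 12 fits without a mouse. Acox3, an oxidase of branched chains on chr5, was the second most abundant member per length by the mean of both ages, at 38.7 CPM per kb in aged and 40.1 CPM per kb in young mice. Its level hardly differed, with 136, 156 and 170 CPM in aged and 146, 155 and 176 CPM in young mice, means of 153 ± 12.5 and 158 ± 12.5 CPM and a log2 fold change of -0.05 ± 0.07 (adjusted p = 0.592). Ehhadh, the L-bifunctional enzyme, was not tested, at 0 to 6 counts in aged and 0 to 2 in young mice.

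Of the 4 receptors and coactivators that control these genes, 1 was tested. Ppara, the main inducer of the pathway in liver, had 0 counts in all 12 mice, which at a floor of 3 counts allows up to 0.184 CPM in the deepest and 0.65 CPM in the shallowest library, before TMM scaling. Ppard (chr17:28232754-28301469) was the only regulator tested and was called lower, with 17.8, 19.8 and 24.1 CPM in aged and 22.0, 24.5 and 28.1 CPM in young mice. The ages overlapped, and the log2 fold change was -0.27 ± 0.09 (adjusted p = 0.0272), with means of 20.5 ± 2.29 CPM in aged and 24.8 ± 2.17 CPM in young mice. This call was lost in 6 of the 12 fits without a mouse. Ppargc1b, a coactivator on chr18, was not tested, at 0 to 14 counts in aged and 0 to 4 in young mice.

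Pparg, known for fat storage and for alternative activation of macrophages, did not pass the filter on low counts. Aged replicates 1, 2, 4, 5, 6 and 7 had 64, 25, 19, 7, 10 and 57 counts, and young replicates 1, 2, 5, 6, 9 and 10 had 2, 1, 3, 5, 5 and 4. The aged mice spread from 0.647 to 7.14 CPM (mean 2.87 ± 2.37, n = 6) and all lay above the young mice, at 0.214 to 0.578 CPM (mean 0.415 ± 0.132, n = 6). Without the filter, edgeR gave a log2 fold change of 2.67 (adjusted p = 0.00136) and DESeq2 2.74 (adjusted p = 2.69e-05). In aged replicates 1, 2, 4, 5, 6 and 7, Pparg was at 7.14, 2.91, 2.03, 0.647, 0.947 and 3.57 CPM. The summed resident macrophage genes of these mice were at 1268, 404, 154, 94.8, 233 and 231 CPM, with replicate 1 the highest in both. The part of such cells in the Pparg difference was not tested. A list of adipocyte and stroma genes summed to 8.96 to 89.9 CPM in aged and 5.32 to 15.8 CPM in young mice, again with aged replicate 1 the highest, and 1 of its 2 tested genes, Cxcl12, was called higher (2.35, adjusted p = 0.0112). Its defining adipocyte genes were low, with Adipoq at 0.0626 to 0.78 CPM in aged and 0 to 0.355 CPM in young mice and Lep at 0 in all mice, and its part in the Pparg difference was not tested. Among the 3 PPAR receptors, Pparg made up a median of 16.2% per length in aged mice (4.95 to 37.4%) and 2.59% in young mice (1.43 to 4.09%), and Ppard the rest.

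**Figure D4:**
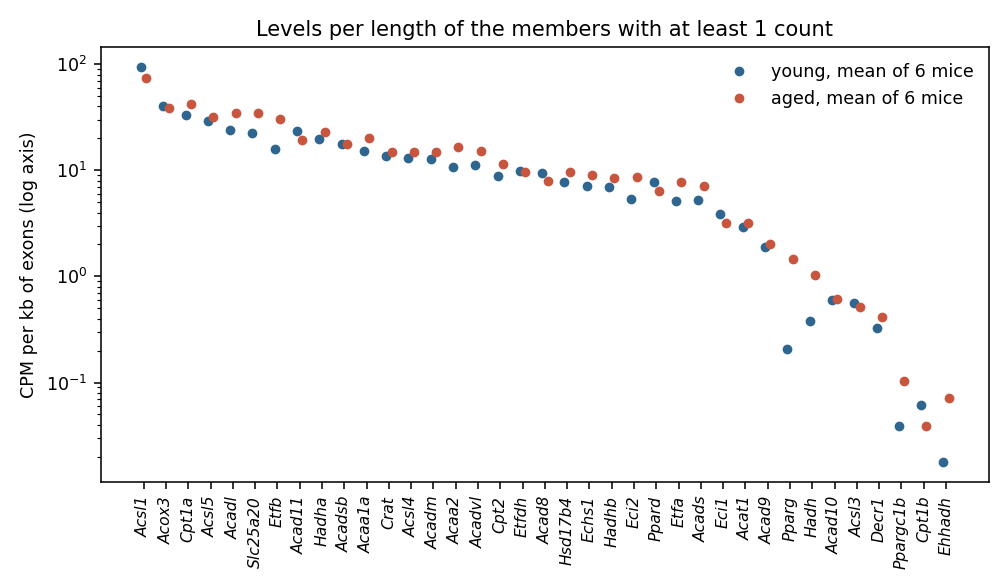
Mean level of 37 members in CPM per kb of exons on a log axis, for 6 aged and 6 young mice, ordered by the mean of both. Acsl1 leads at 93.9 in young and 73.6 in aged mice, and the pair of points is farthest apart among the low members, as for Pparg at 0.209 in young and 1.45 in aged mice. Ppara, at 0 counts, is not drawn.

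Fold changes across the whole table leaned on gene length, with a Spearman correlation of -0.48 between log2 fold change and length over exons across the 9742 genes, which are not independent replicates. Within the 32 tested members it was -0.59. The members called higher had a median length of 1909 bases and the other tested members 3348 bases, while all genes tested had a median of 2890 bases. After the length trend of each library had been removed, 15 members were called higher and 2 lower, beside 1753 and 1585 of the 9742 genes. In either direction 17 members were called, beside 34.3% of all genes. Of the 16 higher calls, 13 were kept, and Echs1 (0.16, adjusted p = 0.329), Hadhb (0.16, adjusted p = 0.235) and Etfa (0.35, adjusted p = 0.0745) were lost. Etfb kept its call with a smaller change (0.54, adjusted p = 0.000753), while the long genes Cpt1a (0.47, adjusted p = 0.000861) and Acsl4 (0.42, adjusted p = 0.00231) gained. Acsl5 and Crat were then called higher and Eci1 lower (-0.62, adjusted p = 0.0078), and the calls of Ppard and Acad11 were lost. The source of the length trend was not tested.

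**Figure D5:**
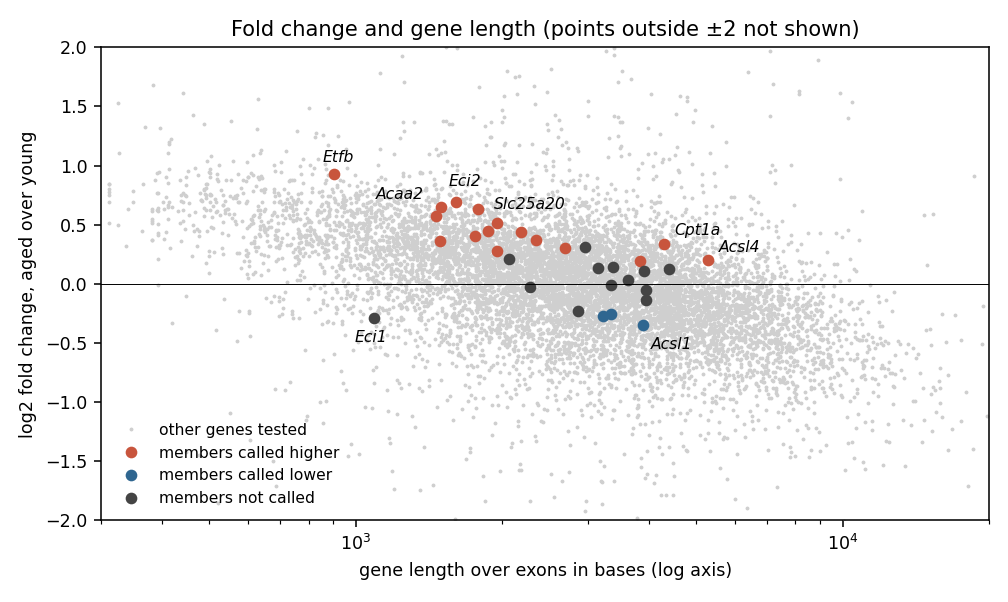
Log2 fold change against gene length over exons on a log axis, with the tested members in colour over the other genes tested in grey. The grey cloud slopes down (Spearman -0.48), Etfb lies at its short end with 0.93, and Eci1, almost as short, lies low in the cloud at -0.29 while Cpt1a lies high among long genes at 0.33.

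Genes around the pathway were described by lists. Of 8 tested genes of fatty acid uptake and binding, 2 were called higher and 2 lower. Fabp5, a fatty acid binding protein, had the smallest p-value among the rises, with 12.6 to 23.7 CPM in aged and 4.38 to 9.57 CPM in young mice (1.14 ± 0.19, adjusted p = 0.000372), and Acbd3 the smallest among the falls (-0.26, adjusted p = 0.00976). Cd36, the fatty acid receptor, was at 0.752 to 43.6 CPM in aged and 0.195 to 1.12 CPM in young mice. Lipid droplet and lipolysis genes were called higher in 3 and lower in 1 of 10, with the smallest p-values for Plin3 at 0.33 (adjusted p = 0.00237) and the monoglyceride lipase Mgll at -0.70 (adjusted p = 1.54e-05).

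Other enzymes of the mitochondria were called higher in 3 and lower in 0 of 16, with the smallest p-value for Bckdha (0.53, adjusted p = 0.00259), and other peroxisomal genes in 5 and 0 of 14, with the smallest for Ech1 (0.31, adjusted p = 0.00277). Of 5 tested PPAR target genes outside the members, 3 were called higher and 0 lower. Plin2, a coat protein of lipid droplets, had the smallest p-value of the 3, at 0.32 (adjusted p = 0.00838). Of 18 tested partners of PPAR receptors and energy sensors, 1 was called higher, 7 were called lower and 10 were not called. Mlycd, which removes malonyl-CoA, the inhibitor of Cpt1, was at 0.55 (adjusted p = 0.00328), and Ncor1, a corepressor of nuclear receptors, at -1.17 (adjusted p = 6.1e-06) with 234 to 385 CPM in aged and 548 to 766 CPM in young mice. Ncor1 is long, with 11144 bases of exons, and over all genes tested log2 fold change and length correlated at -0.48 (Spearman). The part of length in the Ncor1 difference was not tested. Ketone body enzymes were called higher in 2 and lower in 1 of 3, and fatty acid synthesis in 4 and 0 of 11, with the smallest p-value for the mitochondrial synthase Oxsm (0.57, adjusted p = 0.000456). Against 22.2% and 22.8% over all genes, the lists hold too few genes for more than these counts.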

How the data were processed

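Total RNA of sorted bone marrow M-MDSCs was sequenced from 6 aged and 6 young mice, grouped by the ages in the labels. The deposited values are raw fragment counts per gene, which the authors obtained with featureCounts 2.0.0 on mm10 from stranded read pairs with a mapping quality of at least 60, which lowers genes with near-identical copies. The gene lengths over exons were deposited in the same table. The aligner is not given in the sources used here. No batch is named in the labels, and a batch that followed age cannot be told apart from it.

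The counts were filtered with filterByExpr, scaled with TMM and fitted with the robust quasi-likelihood test of edgeR 4.0.16 in R 4.3.3 on all 12 mice without covariates, with Benjamini-Hochberg adjustment over the 9742 genes tested and a threshold of 0.05. The script was tested on simulated data. Ratios of 6 pairs of members used 0.5 added to each count and an exact two-sided permutation test over mice. Alternatives were DESeq2 1.42.0, limma-voom of limma 3.58.1, other scalings and filters, corrections for length and GC, thinning (by 2 methods), a replicate block and leaving out each mouse. Full values were given for the 6 rises and up to 6 falls with the smallest p-values, the highest level per length in each role, all regulators and all pairs. The members, lists and pairs were chosen with earlier results of these data known. Counting error is small beside the variation between mice (15.7%) for genes of many counts. It is not small for members of fewer counts in young mice, such as Etfa (23 to 90), Eci2 (44 to 76) and Eci1 (17 to 43). Floors of 3 counts cover counting error only.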

Additional observations from a re-analysis of the deposited data

Results flagged for a closer look

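In 5 of 86 groups of 6 mice, 1 mouse stood apart from the others by more of the range than Dixon's critical value for 6 values allows, and chance flags about 1 in 20 groups. Acad11 was flagged in both ages, in aged mice through replicate 7 (87.2 CPM, the nearest at 64.7 CPM, ratio 0.767) and in young mice through replicate 10 (90.3 CPM, the nearest at 77.3 CPM, ratio 0.66). Acadsb in young mice had replicate 5 below the others (54.1 CPM, the nearest at 59.3 CPM, ratio 0.626). Among members of few counts, aged replicate 1 stood above the other aged mice in Ehhadh (0.669 CPM, the nearest at 0.233 CPM, ratio 0.652) and in Ppargc1b (1.56 CPM, the nearest at 0.376 CPM, ratio 0.759). Aged replicate 1 also had the highest summed resident macrophage genes. Without it 13 members were called higher and 1 lower, beside 2066 and 2110 of 9780 genes tested. Without aged replicate 6 the member numbers were the same, beside 1946 and 1977 of 9804 genes.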

How the results depend on the processing

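The members called higher, 16, numbered 10 with the replicate number as a block and 11 to 18 under the other alternatives with all mice, apart from the further thinning draws given next. Of all genes, 1655 of 9742 were called higher with the block, against 2166 of 9742 in the main comparison. Under those other alternatives 1671 to 2478 were, with 8668 to 15827 genes tested. The 17 with DESeq2 and the 15 without a filter include Hadh and Pparg, which the filter had removed, and of the 16 themselves 15 and 13 were kept. In the fits without a mouse, 13 members, 12 higher and Acsl1, were called in every one of the 12. The lower calls were 1 to 4 without a mouse, 1 without aged replicates 1, 2, 5 or 6 or young replicates 1 or 5, and 4 without aged replicate 7. The median log2 fold change, 0.21, was 0.13 without TMM. It was 0.29 with DESeq2 and 0.27 without a filter over the larger sets of members kept there, and 0.21 and 0.20 over the 32 members of the main comparison. Without TMM, 1671 genes of the table were called higher and 2752 lower, against 2166 and 2221. Members that changed sign under a setting were not called in the main comparison. The block lost the calls of Acsl4, Cpt1a, Cpt2, Hadha, Hadhb and Hsd17b4. The cause of these shifts was not tested.

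Thinning every library to the smallest total by 1 random draw lost the calls of Acadvl (0.26, adjusted p = 0.0795), Eci2 (0.34, 0.101), Acaa1a (0.31, 0.075), Hadhb, Echs1, Hsd17b4 and Ppard. That method, thinCounts of edgeR with a target size, removes reads by a multinomial draw, and its counts varied 1.08 to 3.61 times as much as binomial sampling gives. Further draws were made after seeing these losses. In 10 more of the same kind, 9 to 14 members were called higher and 1 to 2 lower, with a median of 0.19 to 0.28, and Acadvl, Eci2 and Acaa1a were each called in 9, Hadha in 8, Cpt2, Acads and Etfa in 6, Hsd17b4 in 4, Echs1 and Acad11 in 3 and Acsl4, Hadhb and Ppard in 2. In 10 binomial draws, with a variance ratio of 0.962 to 1.05, 11 to 16 were called higher and 1 to 3 lower, and Acadvl, Eci2 and Acaa1a were called in all 10, Acads in 9, Hadha and Hsd17b4 in 8, Cpt2 in 7, Echs1 and Ppard in 5, Acsl4 in 4 and Hadhb and Acad11 in 3.

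The labels give both ages the numbers 1, 2, 5 and 6, but same-numbered mice are different mice whose deviations correlated at -0.25 to -0.07, so that the numbers do not pair them. With this replicate block, which keeps 4 pairs for the ratios, the log2 difference was -0.28 for Acadm to Acadvl, 0.67 for Acsl4 to Acsl1 and -0.80 for Eci1 to Eci2, none past the threshold, where the smallest exact p is 0.125. Without 1 mouse, Acadm to Acadvl ranged from -0.27 to -0.19 and Etfa to Etfb from -0.44 to -0.16. Without young replicates 1 and 2 together, the shallowest libraries, an alternative chosen after seeing the data, Etfa to Etfb was -0.46 and past the threshold and Acadm to Acadvl was -0.18 and not. That setting left 15 of the 32 members of the main comparison called higher and 2 lower, beside 2023 and 2181 of 9932 genes. Without young replicates 5 and 6 together, also chosen after seeing the data, 9 of the 32 were called higher and 1 lower. All genes then had 1337 higher and 1757 lower calls of 9857. Pparg, not tested with all mice, was called higher besides in both settings.

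The counts of related genes moved as well. Under the alternatives other than thinning draws and leaving out 1 mouse, higher calls ran from 1 to 4 for uptake and binding, 2 to 3 for lipid droplets, 1 to 5 for other mitochondrial enzymes, 2 to 7 for other peroxisomal genes, 1 to 2 for PPAR partners, 1 to 5 for PPAR targets, 1 to 2 for ketone body enzymes and 3 to 7 for synthesis, and lower calls of PPAR partners from 3 to 7. Depth limits the members of few counts, among them Ppara, Cpt1b, Ehhadh, Ppargc1b, Hadh, Pparg and Decr1.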
